A study of Mus musculus with 18 samples.

Results

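The 6 genes described here encode the invariant chains of the T cell antigen receptor complex and the chains of its co-receptor CD8: Cd3d, Cd3e, Cd3g, Cd247, Cd8a and Cd8b1. They were taken by symbol, and all 6 were found among the 45706 genes of each table and passed the filter on low counts. RNA-seq gave their levels in 18 libraries. The cells were OT-I CD8+ T cells, mouse cytotoxic T cells with a transgenic receptor for an ovalbumin peptide.

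Repeat peptide cells received 10 ng/ml of the OVA peptide daily for 5 days and stayed with peptide afterwards, and single peptide cells received it once for 48 h. From day 5 to day 8 either culture was kept with 1 µM ibrutinib, an inhibitor of the kinase BTK, or with its solvent DMSO. This gave 4 groups: repeat peptide DMSO (n = 4), repeat peptide ibrutinib (n = 5), single peptide DMSO (n = 5) and single peptide ibrutinib (n = 4). The letters A to F denote the experiments that the labels tell apart. The cells of every group came from splenocytes of CD45.1+ OT-I mice by negative selection, were cultured with IL-7 and IL-15, and have the strain entry "OT-1 mice WT". The genotype entry of experiments B, C, D and E nevertheless names a btk KO, that of A reads "INHB-1 left over" and that of F "PKC igoni-2". The entries of A, B, C and D occur in treated and solvent libraries alike, while E has only a treated library and F only a solvent library. All were read as names of experiments, a reading that the labels do not settle. Total expected counts ranged from 23445922 to 51995372 per library.

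The receptor heterodimer that binds peptide and MHC has no signalling tail of its own. It is assembled with CD3 gamma-epsilon and delta-epsilon dimers and with a dimer of the zeta chain encoded by Cd247, whose phosphorylated motifs recruit the kinase ZAP-70. CD8 alpha and CD8 beta form the co-receptor that binds MHC class I, and the tail of the alpha chain carries the kinase LCK. CD8 alpha can also pair with itself, whereas CD8 beta reaches the surface with an alpha chain.

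The genes lie at 3 loci of the GRCm38 genome. On chromosome 9, Cd3g (44969572 to 44980431, minus strand) and Cd3d (44981786 to 44987339, plus strand) are transcribed away from each other from starts 1355 bases apart, and Cd3e (44998740 to 45009627, minus strand) follows 11401 bases beyond Cd3d. Cd8b1 (71322788 to 71337494) and Cd8a (71373427 to 71379173) lie on the plus strand of chromosome 6 with 35933 bases between them. Cd247 (165788681 to 165877277, plus strand) is on chromosome 1 and shares its span with Pou2f1 on the other strand. Gm16565 (165781075 to 165789367), on the same strand, overlaps the start of Cd247. Libraries were strand-specific.

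The 250 bases before the RefSeq starts (GRCm38.p6) are shown for Cd3g and Cd3d, because these neighbours changed unequally, and for Cd247, the chain that differed with ibrutinib. All are written 5′ to 3′ along the gene's own strand, at chr9:44980432-44980681 (minus), chr9:44981536-44981785 (plus) and chr1:165788431-165788680 (plus). Capitals mark exact matches, on either strand, to AGGAAG (ETS core), CAGGTG (E protein box) or CTTTGA (TCF-1/LEF-1 core).
Cd3g: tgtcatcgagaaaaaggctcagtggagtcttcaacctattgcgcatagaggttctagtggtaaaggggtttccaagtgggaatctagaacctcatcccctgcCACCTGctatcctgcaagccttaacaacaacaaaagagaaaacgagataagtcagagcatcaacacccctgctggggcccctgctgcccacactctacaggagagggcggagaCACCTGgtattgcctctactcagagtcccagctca
Cd3d: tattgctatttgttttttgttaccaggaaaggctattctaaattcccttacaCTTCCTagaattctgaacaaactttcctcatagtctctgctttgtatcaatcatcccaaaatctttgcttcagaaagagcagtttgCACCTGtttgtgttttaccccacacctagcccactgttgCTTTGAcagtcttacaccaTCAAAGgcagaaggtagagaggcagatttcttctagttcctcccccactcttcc
Cd247: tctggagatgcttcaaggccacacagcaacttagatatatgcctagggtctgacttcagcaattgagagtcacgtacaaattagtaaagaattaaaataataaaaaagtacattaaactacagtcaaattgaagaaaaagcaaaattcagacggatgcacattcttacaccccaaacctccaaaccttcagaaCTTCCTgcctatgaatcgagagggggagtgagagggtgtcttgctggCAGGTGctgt

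Promoter sequence was found for 5 of the 6 genes. The Cd3g window held 2 matches to CAGGTG, and the Cd3d window held 1 match to CAGGTG, 1 to AGGAAG and 2 to CTTTGA. The Cd247 window held 1 match to CAGGTG and 1 to AGGAAG, and the Cd3e window held 2 to AGGAAG. None of the letters searched, TGTGGT (Runx core) and TATAAA included, occurred in the Cd8a window. Among all 32851 promoter windows of this length, CAGGTG occurred in 17.2%, AGGAAG in 29.5%, CTTTGA in 13.8%, TGTGGT in 14% and TATAAA in 12.4%. The motifs do not overlap one another, and a match is a description of letters only.

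All 6 transcripts were abundant. In TPM, transcript levels scaled by length and to a common total in each library, Cd3g was the highest of the 6 in repeat peptide DMSO cells, with a mean of 1065 ± 39.2 TPM (SD, n = 4), and Cd247 the lowest, with 105 ± 6.76. By mean TPM these took ranks 132 and 1230 among 27903 protein-coding and lncRNA genes. In single peptide DMSO cells Cd8b1 was the highest, with 819 ± 59.4 TPM (n = 5), and Cd247 again the lowest, with 202 ± 4.64. Markers of other cell types were low. Cd4 averaged at most 0.0425 TPM in any group, and the summed TPM of 5 B cell markers did not exceed 7.1, of 5 myeloid markers 6.23 and of 2 erythroid markers 1.84. The CD4-lineage list reached 20.8 TPM in repeat peptide DMSO cells through Zbtb7b. Its member Foxp3 went the other way, with means of 0.0375 TPM in repeat and 1.79 in single peptide DMSO cells. With ibrutinib these means were 0.4 and 2.79.

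**Figure D1:**
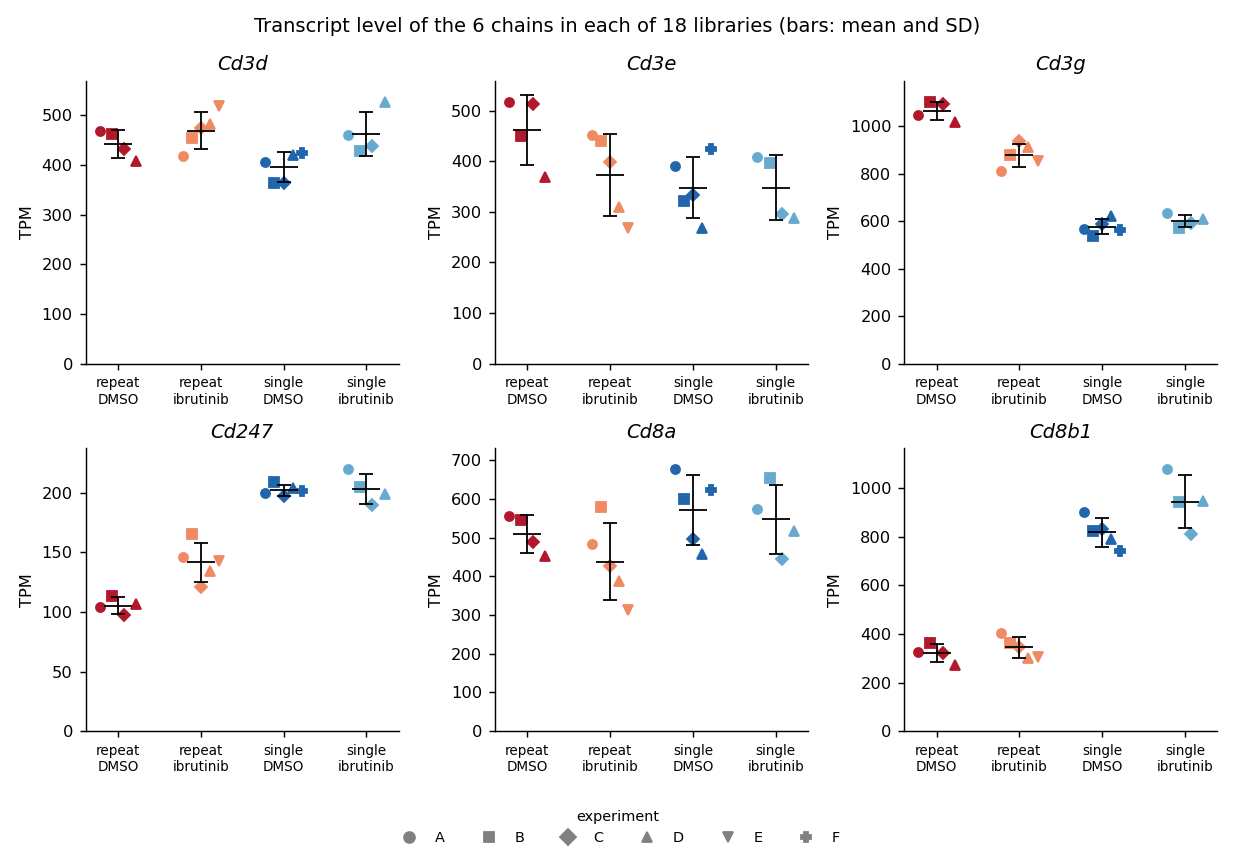
TPM of the 6 chains (y axis, from 0) in each of the 18 libraries, by group (x axis), with symbols for the experiments and bars for the mean and SD. Cd8b1 and Cd247 lie lower in every repeat peptide library than in every single peptide library, Cd3g lies higher, and Cd3d, Cd3e and Cd8a overlap between most groups.

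Repeat peptide stimulation was compared with single peptide stimulation in the presence of DMSO, which shows how the receptor chains differed after persistent antigen. Transcripts of Cd8b1, Cd247 and Cd8a were lower, and those of Cd3g and Cd3e were higher, in repeat peptide cells. Fold changes are from edgeR's quasi-likelihood test on normalised counts with Benjamini-Hochberg adjustment. A gene is called where the adjusted p is under 0.05, the log2 fold change exceeds 0.2 in size and normalised counts average 50 or more. In all, 5 chains were called, 2 higher and 3 lower, in a comparison in which 47.0% of all 12255 tested genes were called, 22.8% higher and 24.2% lower. Since nearly every second gene was called here, the count of 5 does not set the chains apart, and their values are what follows. Fewer cells expressing a chain and less RNA per cell cannot be told apart in these bulk samples.

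Cd8b1, the beta chain of the co-receptor, had the largest change. Its TPM was 324, 364, 323 and 271 in the repeat peptide DMSO libraries A to D and 904, 824, 831, 792 and 741 in the single peptide DMSO libraries A, B, C, D and F. The groups did not overlap. The log2 fold change was -1.54 (SE 0.14, adjusted p = 5.48e-08), a 2.90-fold difference, and it was lower in 4 of 4 experiments.

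Cd247, the zeta chain, followed with 104, 114, 97.3 and 107 TPM in repeat peptide DMSO libraries A to D against 200, 209, 197, 204 and 202 in single peptide DMSO libraries A, B, C, D and F. The spread within either group was small beside the gap between them. The log2 fold change was -1.12 (SE 0.14, adjusted p = 4.33e-06), lower in 4 of 4 experiments.

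Cd3g moved the other way. Its TPM was 1046, 1102, 1092 and 1019 in repeat peptide DMSO libraries A to D, and 567, 539, 589, 623 and 563 in single peptide DMSO libraries A, B, C, D and F. No library of one group reached the other. The log2 fold change was 0.67 (SE 0.16, adjusted p = 0.00217), a 1.59-fold difference, higher in 4 of 4 experiments.

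Differences of the remaining chains were smaller. Cd8a, the alpha chain, fell by 0.32 on the log2 scale (SE 0.10, adjusted p = 0.0107) in normalised counts, with groups that did not overlap. Its TPM did overlap, with 452 to 556 in repeat peptide DMSO cells and 459 to 677 in single peptide DMSO cells, and limma on log2(TPM + 1) gave -0.15 and an adjusted p of 0.477. Cd3e, which pairs with both CD3 gamma and delta, was higher by 0.23 (SE 0.09, adjusted p = 0.0443), but its groups overlapped. Its call was lost when any of 8 libraries was left out, namely repeat peptide DMSO A, B or C, single peptide DMSO A, B or D, or single peptide ibrutinib B or C (adjusted p 0.0507 to 0.135). Cd3d differed by -0.03 (95% interval -0.43 to 0.36, adjusted p = 0.891), with TPM of 407 to 469 against 364 to 425.

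**Figure D2:**
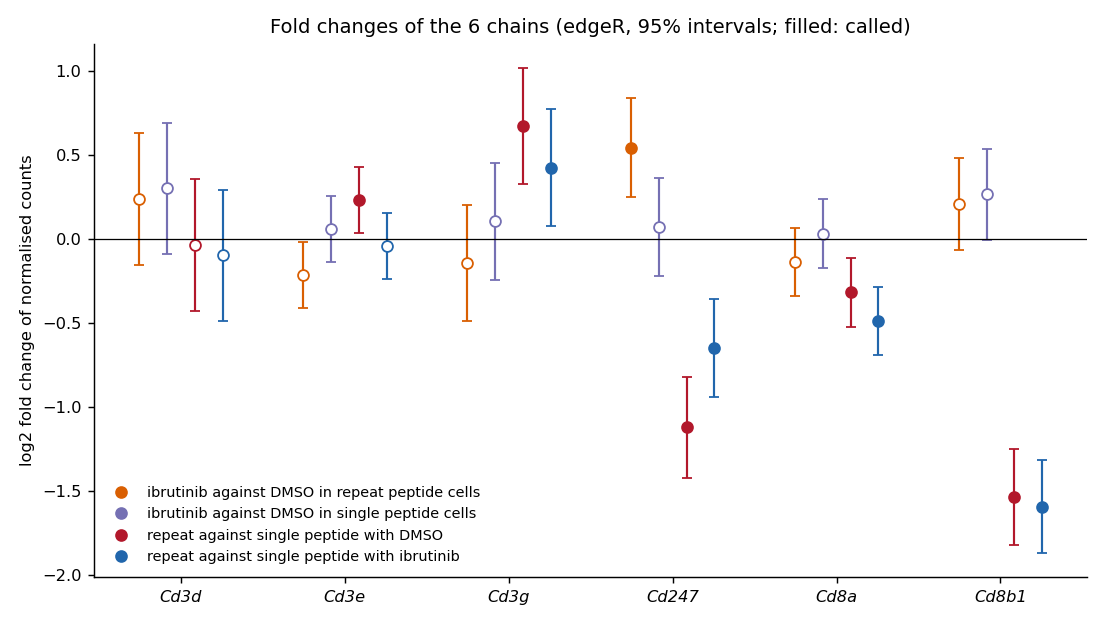
Log2 fold changes of normalised counts (y axis) for the 6 chains (x axis) in 4 comparisons, with 95% intervals from edgeR. Filled points passed the call threshold. Cd8b1 and Cd247 have the lowest values, at -1.54 and -1.12 for repeat against single peptide with DMSO, and Cd247 is the one chain with a filled point for ibrutinib against DMSO, at 0.54.

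TPM and normalised counts place the libraries on different scales. On log2(TPM + 1) the median gene shifted by 0.14 in the comparison of repeat with single peptide under DMSO and by 0.11 under ibrutinib, relative to the normalised counts. The share of called genes that were higher was 71.6% on TPM against 48.6% on normalised counts under DMSO, and 78.8% against 48.8% under ibrutinib.

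With ibrutinib in both cultures, 4 chains were called between repeat and single peptide cells, 1 higher and 3 lower, where 38.4% of tested genes were called, 18.7% higher and 19.6% lower. Cd8b1 was at 404, 364, 348, 301 and 305 TPM in repeat peptide ibrutinib libraries A to E and at 1077, 943, 809 and 947 in single peptide ibrutinib libraries A to D. The log2 fold change was -1.59 (SE 0.13, adjusted p = 4.65e-08). Cd247 was lower by -0.65 (SE 0.14, adjusted p = 0.00104) and Cd8a by -0.49 (SE 0.10, adjusted p = 0.000575). Cd3g was higher by 0.42 (SE 0.17, adjusted p = 0.0465), a call that was lost without any 1 of 9 libraries, namely repeat peptide DMSO A or C, repeat peptide ibrutinib C, D or E, single peptide DMSO C or F, or single peptide ibrutinib A or B (adjusted p 0.0509 to 0.158). Its TPM did not overlap, with 810.5 to 936 against 571 to 633. Cd3d (-0.10, 95% interval -0.49 to 0.29) and Cd3e (-0.04, 95% interval -0.24 to 0.15) were not called.

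Repeat peptide ibrutinib cells were also set against single peptide DMSO cells, which asks how far treated cells stood from cells stimulated once. Again 4 chains were called, 1 higher and 3 lower, where 32.9% of genes were called, 16.7% higher and 16.2% lower. Cd8b1 differed by -1.33 (SE 0.13, adjusted p = 3.67e-07), Cd247 by -0.57 (SE 0.13, adjusted p = 0.00233), Cd8a by -0.45 (SE 0.09, adjusted p = 0.000884) and Cd3g by 0.53 (SE 0.16, adjusted p = 0.0126). This comparison shares the treated libraries with the preceding one and the solvent libraries with the first.

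The effect of ibrutinib was measured within each culture. In repeat peptide cells 1 chain, Cd247, was called higher, where 5.92% of tested genes were called and 4.01% were called higher. Its TPM was 146, 165, 121, 134 and 142 in repeat peptide ibrutinib libraries A to E, against 104, 114, 97.3 and 107 in the solvent libraries A to D. In TPM all 5 treated libraries were above all 4 solvent libraries, and below every single peptide library, the lowest of which was at 189.9. In normalised counts the treated libraries were also above the solvent libraries but overlapped the single peptide libraries. There repeat peptide ibrutinib E, at 6480, exceeded single peptide DMSO A (6094) and single peptide ibrutinib B (6395). The log2 fold change was 0.54 (SE 0.14, adjusted p = 0.0257), and within experiments A to D the log2 differences were 0.50, 0.28, 0.44 and 0.43.

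The call of Cd247 was sensitive to the libraries used. Without repeat peptide DMSO A, C or D, or repeat peptide ibrutinib E, the adjusted p was 0.074, 0.101, 0.0522 and 0.0566, with log2 fold changes of 0.50, 0.49, 0.58 and 0.41. In a fit of the 2 compared groups alone it was 0.0697. With the experiment as a block the log2 fold change was 0.41 (adjusted p = 0.0096). The blocked difference rests on experiments A to D, since E and F have no library of another group. In single peptide cells Cd247 did not differ detectably with ibrutinib, at 0.07 (95% interval -0.22 to 0.37, adjusted p = 0.896). The difference between the 2 ibrutinib effects was 0.47 (95% interval 0.06 to 0.88, unadjusted p = 0.0284, adjusted p = 0.347, edgeR), so a difference between the cultures was not shown after adjustment.

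The other CD3 chains were not called with ibrutinib in repeat peptide cells. Cd3g was at 810.5, 877, 936, 912 and 854 TPM in repeat peptide ibrutinib libraries A to E against 1046, 1102, 1092 and 1019 in the solvent libraries A to D, which do not overlap. In normalised counts the groups overlapped and the log2 fold change was -0.14 (95% interval -0.49 to 0.20, adjusted p = 0.663), while limma on log2(TPM + 1) gave -0.28 and an adjusted p of 0.0444. Cd3e was at -0.21 (95% interval -0.41 to -0.02, unadjusted p = 0.0343, adjusted p = 0.188) and lower in 4 of 4 experiments. Cd3d was at 0.24 (95% interval -0.16 to 0.63), with 18182 normalised counts in repeat peptide ibrutinib E against 8906 to 12774 in A to D. Its log2 differences within experiments A to D were -0.17, -0.28, 0.26 and 0.35. Cd8b1 was at 0.21 (95% interval -0.06 to 0.49) and Cd8a at -0.14 (95% interval -0.34 to 0.07). With the experiment as a block, Cd3e was at -0.22 (unadjusted p = 0.00868, adjusted p = 0.0554) and Cd3g at -0.29 (adjusted p = 0.0668), both near the threshold. Cd3d was at 0.02, Cd8b1 at 0.12 and Cd8a at -0.13 in that fit, and none of these chains was called.

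In single peptide cells none of the 6 chains was called with ibrutinib by edgeR, where 3.04% of tested genes were called, and none had an unadjusted p under 0.05. The nearest was Cd8b1 at 0.27 (SE 0.13, unadjusted p = 0.0555, adjusted p = 0.386), higher in 4 of 4 experiments. For the difference between the ibrutinib effects in the 2 cultures 0 of 6 chains and 1.26% of genes were called, and Cd247 was the 1 chain with an unadjusted p under 0.05. DESeq2's Wald test also called 0 chains in either comparison. With the experiment as a block the unadjusted p of Cd3d in single peptide cells was 0.024 (0.29, adjusted p = 0.136). For the difference, the blocked values were -0.33 for Cd3e (unadjusted p = 0.00555, adjusted 0.0762), -0.37 for Cd3g (0.0228, adjusted 0.169) and 0.35 for Cd247 (0.0193, adjusted 0.155), so none was called. In each of these 3 genes the difference had the same sign in 4 of 4 experiments, as it did in Cd8a, whose blocked unadjusted p was 0.164.

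Libraries differed in how counts varied with transcript length, and so did 4 of the chains. The trend of normalised counts with length ranged from -0.32 log2 units per doubling of length in repeat peptide ibrutinib E to 0.17 in single peptide ibrutinib B, over 10464 genes. Within groups, normalised counts of Cd3g, Cd3d, Cd247 and Cd8b1 went against this trend, with Pearson's r of -0.97, -0.92, -0.88 and -0.71 over 18 libraries that also share their scaling, while Cd3e and Cd8a had 0.25 and 0.16. The transcripts are 993 to 1014 bases long for Cd3g, 1323 for Cd3d, 1418 for Cd8b1, 1436 for Cd3e, 1610 to 1628 for Cd247 and 3118 to 3120 for Cd8a.

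**Figure D3:**
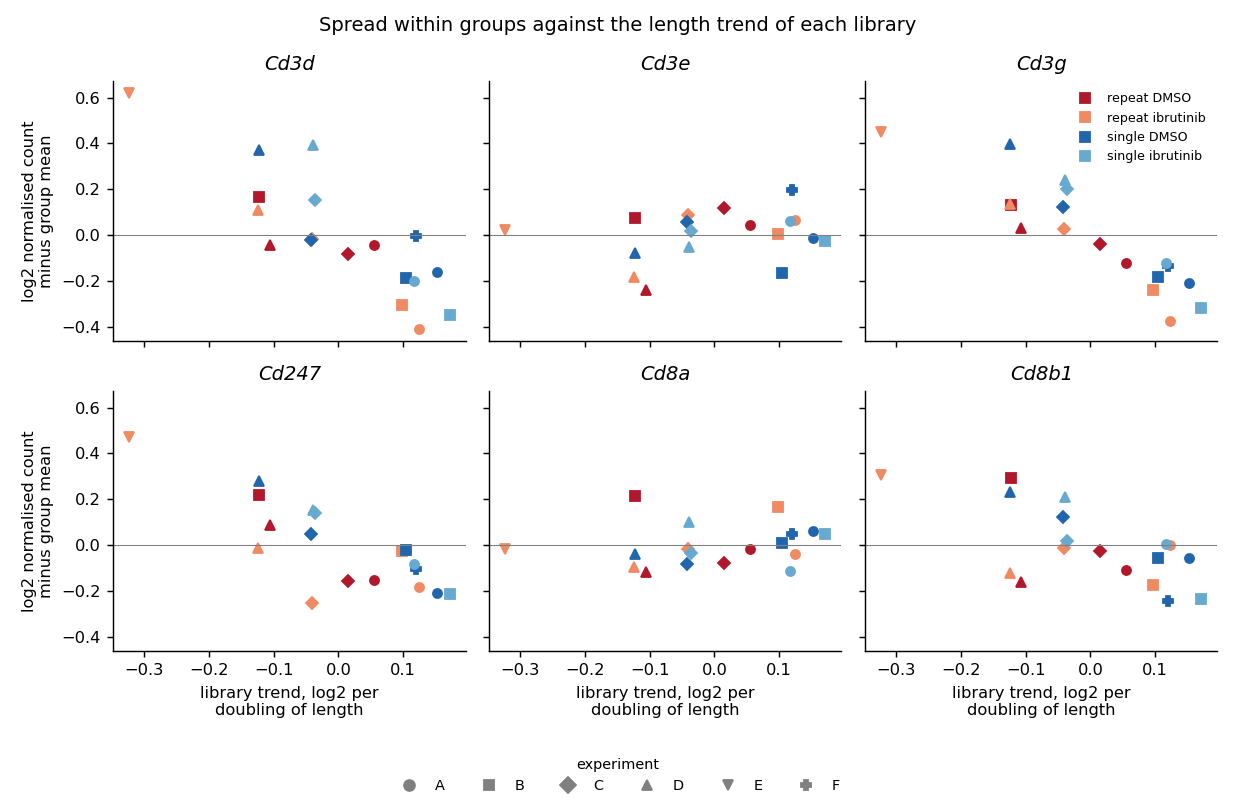
Log2 normalised count of each chain minus its group mean (y axis) against the length trend of the library, in log2 units per doubling of transcript length (x axis), with colours for groups and symbols for experiments. Repeat peptide ibrutinib E, at -0.32 on the x axis, has the highest values of Cd3d, Cd3g, Cd247 and Cd8b1, and Cd3e and Cd8a show no such slope.

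The fit was therefore repeated with each library's length trend removed, an alternative chosen after the data were seen. Cd247 was then higher by 0.53 with ibrutinib in repeat peptide cells (SE 0.11, adjusted p = 0.00449). Cd3g was lower by -0.21 (SE 0.08, adjusted p = 0.0871) in the same comparison, and this passed with the experiment as a further block (-0.24, adjusted p = 0.0227). For repeat against single peptide with DMSO the values were -1.72 for Cd8b1, -1.28 for Cd247, 0.50 for Cd3g, -0.35 for Cd8a and 0.05 for Cd3e, the last no longer called (adjusted p = 0.728). Under ibrutinib Cd3g was at 0.15 and no longer called (adjusted p = 0.103), while Cd3d was called at -0.34 (adjusted p = 0.0357). In that comparison this correction moved the median of all genes by -0.12. Under DMSO the median of all genes was -0.076 with the correction and -0.002 without it.

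Ratios between chains of the same library do not depend on the scaling of libraries. In all, 4 ratios were compared in 4 comparisons by two-sided exact permutation tests of log2 count ratios over 126 splits, with p-values adjusted over the 16 tests. The smallest p that 4 against 5 libraries gave was 0.00794, or 0.0159 after adjustment. The ratios themselves are given as ratios of TPM.

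The ratio of Cd3d to its divergent neighbour Cd3g separated the groups most tightly. It was 0.448, 0.42, 0.395 and 0.4 in repeat peptide DMSO libraries A to D, and 0.515, 0.517, 0.507, 0.529 and 0.607 in repeat peptide ibrutinib libraries A to E. Every treated library was above every solvent library, with a log2 difference of 0.36 (exact p = 0.00794, adjusted 0.0159). Within experiments A to D the difference was 0.25, 0.26, 0.36 and 0.41. In single peptide cells the ratio averaged 0.688 ± 0.0509 (n = 5) with DMSO and 0.771 ± 0.0654 (n = 4) with ibrutinib, a log2 difference of 0.18 (exact permutation p = 0.0238, adjusted 0.0346) with overlapping ranges. Leaving out single peptide DMSO A, B, C or D, or single peptide ibrutinib B, C or D, gave p of 0.0536 to 0.0893. Whether the 2 ibrutinib differences differ from each other was not tested. Repeat peptide cells were lower by 0.71 on the log2 scale with DMSO and by 0.53 with ibrutinib, both without overlap (exact p = 0.00794 each).

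Cd8a to Cd8b1, the ratio of alpha to beta co-receptor chain, was 1.71, 1.5, 1.51 and 1.67 in repeat peptide DMSO libraries A to D and 0.749, 0.729, 0.597, 0.579 and 0.841 in single peptide DMSO libraries A, B, C, D and F. Alpha transcripts thus exceeded beta transcripts per length in all 4 former libraries and in none of the latter 5. The log2 difference was 1.22 with DMSO and 1.11 with ibrutinib (exact p = 0.00794 each). Ibrutinib lowered the ratio in repeat peptide cells, from a mean of 1.6 ± 0.109 to 1.27 ± 0.206, by a log2 difference of -0.35 (exact permutation p = 0.0317, adjusted 0.0423), with overlapping ranges and in 3 of 4 experiments. Leaving out any 1 library but repeat peptide ibrutinib B gave p of 0.0857 to 0.107.

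Cd247 to Cd3e averaged 0.233 ± 0.0464 (n = 4) in repeat peptide DMSO cells, 0.393 ± 0.0915 (n = 5) in repeat peptide ibrutinib cells, and 0.597 ± 0.112 (n = 5) and 0.596 ± 0.0828 (n = 4) in single peptide cells with DMSO and ibrutinib. The log2 difference with ibrutinib was 0.74 in repeat peptide cells (exact permutation p = 0.0159, adjusted 0.0282), without overlap and in 4 of 4 experiments, and 0.01 in single peptide cells (exact permutation p = 0.929). Cd8a to Cd3e was lower in repeat peptide cells by 0.55 with DMSO and 0.44 with ibrutinib on the log2 scale (exact p = 0.00794 each). It differed by 0.08 and -0.03 with ibrutinib in repeat and single peptide cells (exact permutation p = 0.421 and 0.722).

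**Figure D4:**
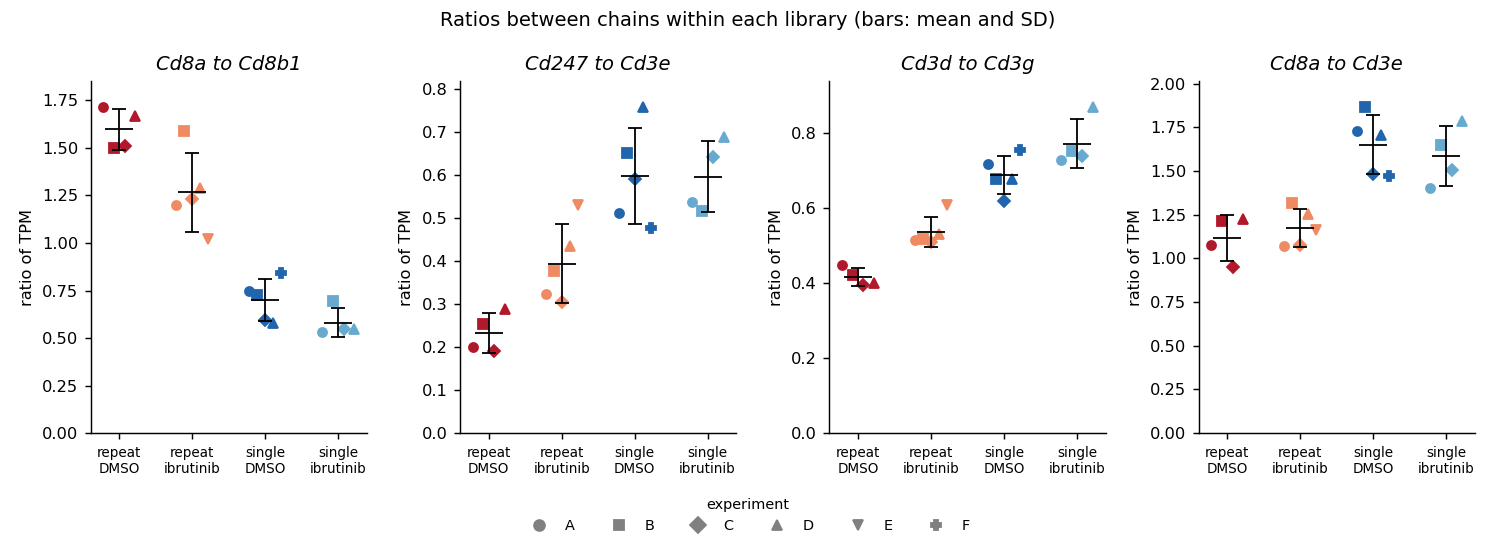
Ratios of TPM between 2 chains in each library (y axis, from 0) by group (x axis), with symbols for experiments and bars for the mean and SD. The Cd3d to Cd3g ratio is at 0.395 to 0.448 in repeat peptide DMSO libraries, at 0.507 to 0.607 in repeat peptide ibrutinib libraries, and at 0.618 or more in single peptide libraries.

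The constant segments of the receptor itself were taken from a fit of all gene types, in which 5.55% of 13035 genes were called for ibrutinib in repeat and 2.70% in single peptide cells, and 44.7% under DMSO and 36.0% under ibrutinib for repeat against single peptide. Trac, the alpha constant segment, had 758 ± 116 TPM in repeat peptide DMSO cells and 657 ± 198 in single peptide DMSO cells. In normalised counts it was higher by 0.39 in repeat peptide cells (SE 0.08, adjusted p = 0.000774) and lower by -0.33 with ibrutinib in these (SE 0.08, adjusted p = 0.0251). Trbc1 and Trbc2, the beta constant segments, were called in none of these comparisons. Trbc1 was at 861 ± 51.5 and Trbc2 at 3570 ± 665 TPM in repeat peptide DMSO cells, and because the pair is nearly identical in sequence its split between them is uncertain.

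Segments of gamma and delta receptors, which alpha-beta T cells do not use on their surface, were low but not absent. Trdc averaged 23.8 ± 6.38 TPM in repeat peptide DMSO cells and 51.8 ± 15.8 in single peptide DMSO cells, a log2 fold change of -1.27 (SE 0.17). Tcrg-C1 fell from 38.4 ± 9.2 to 4.86 ± 3.89 TPM (log2 fold change -3.18, SE 0.46, adjusted p = 1.91e-05), and with ibrutinib in repeat peptide cells it was higher by 1.99 (SE 0.45, adjusted p = 0.0116). Tcrg-C4 was also lower in repeat peptide DMSO cells, by 1.83 on the log2 scale, while Tcrg-C2 was not called. The gamma segments share near-identical stretches, and their counts are uncertain in part. The summed TPM of the 2 gamma-delta markers, Trdc and Sox13, was 20.2 to 33.8 in repeat peptide DMSO and 39.6 to 81.4 in single peptide DMSO libraries, and 16.7 to 39 and 39.3 to 74.3 in the ibrutinib libraries of these cultures. Between repeat and single peptide cells these levels moved with Cd247 and Cd8b1, and their part in those differences was not tested. With ibrutinib in repeat peptide cells the sums overlapped and Trdc was not called (0.31, adjusted p = 0.298), while Cd247 was called higher. The summed TPM of 3 natural killer markers was 4.65 to 15.8 in repeat and 20.8 to 38 in single peptide DMSO libraries. In the ibrutinib libraries it was 6.8 to 40.7 and 10.9 to 15.6, so the sum did not move with the chains in both. Its members moved in opposite directions with DMSO. Klrb1c averaged 6.03 TPM in repeat and 1.48 in single peptide DMSO cells, and Eomes 2.45 and 27.6. Ncr1 averaged at most 0.314 TPM in any group. Because the sum mixes these opposite changes, it does not show natural killer content, which was not tested.

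Transcripts of proteins that act beside the receptor were examined next. Of 14 tested of 15 signalling partners, 1 was called higher and 8 lower with DMSO, where 22.8% of all genes were called higher and 24.2% lower, with a median log2 fold change of -0.42 against -0.002 over all genes. The largest were Pag1 (-1.83, SE 0.20) and Sit1 (-0.97, SE 0.21), 2 transmembrane adaptors, and Ptprc (-0.87, SE 0.14), which encodes the phosphatase CD45. Lck, whose product binds the CD8 alpha tail, fell by 0.31 (adjusted p = 0.0265) and Zap70 was at 0.08 (adjusted p = 0.531). With ibrutinib in both cultures 1 was higher, Cd5 (0.63), a surface regulator of receptor signalling, and 4 were lower, with Pag1 (-1.40) and Themis (-0.63) the largest, where 18.7% and 19.6% of all genes were called. Between repeat peptide ibrutinib and single peptide DMSO cells 1 was higher and 4 were lower, where 16.7% and 16.2% of genes were. Ibrutinib in repeat peptide cells raised 2 of 14, Sit1 (0.82, SE 0.21, adjusted p = 0.0266) and Lat (0.41, SE 0.09, adjusted p = 0.0116), which encodes the adaptor phosphorylated by ZAP-70, where 4.01% of genes were called higher. Without repeat peptide DMSO C none and without D 1 of the 14 was called. In single peptide cells ibrutinib raised Themis (0.43, SE 0.10, adjusted p = 0.0284), where 3.04% of genes were called. None was called without single peptide DMSO B or C or without any 1 of the 4 single peptide ibrutinib libraries. With the experiment as a block 4 partners were called for ibrutinib in repeat peptide cells, where 13.8% of genes were. In the comparisons of repeat peptide ibrutinib cells with single peptide ibrutinib and DMSO cells the block gave 8 each, where 48.6% and 40.7% of genes were called.

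Genes of receptor turnover changed in both directions. Of 11, 3 were higher and 4 lower in repeat peptide DMSO cells, with a median log2 fold change of -0.17, where 47.0% of all genes were called. The 3 largest were higher: Ubash3b (1.45, SE 0.20), a phosphatase that dampens receptor signalling, Cblb (1.15, SE 0.16), a ubiquitin ligase, and Sla (0.82, SE 0.10), an adaptor that promotes loss of receptor complexes. With ibrutinib in both cultures 3 were higher and 2 lower, where 38.4% of genes were called, and between repeat peptide ibrutinib and single peptide DMSO cells 2 were higher and 2 lower, where 32.9% were. Ibrutinib lowered Sla in repeat peptide cells (-0.79, SE 0.10, adjusted p = 0.000174) and none of the 11 in single peptide cells. Beside these, 5.92% and 3.04% of all genes were called. With the block 5 turnover genes were called for ibrutinib in repeat and 1 in single peptide cells, where 13.8% and 9.09% of genes were. For the difference of the ibrutinib effects edgeR called none of the partners and turnover genes without the block, and 2 and 1 with it, where 5.54% of genes were called.

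Transcription factors known to act on the Cd8 or Cd3 loci were the last list. Of 14, repeat peptide DMSO cells had 2 called higher and 9 called lower, with a median of -0.44, where 22.8% and 24.2% of all genes were called higher and lower. Zbtb7b, which encodes the CD4-lineage factor ThPOK that represses the Cd8 genes, was higher by 2.37 (SE 0.23). Tcf7 (-2.16, SE 0.21) and Bcl11b (-1.75, SE 0.14), factors of naive and early T cells, had the largest falls. The counts were 2 and 9 with ibrutinib in both cultures, where the shares of all genes were 18.7% and 19.6%. They were 1 and 9 between repeat peptide ibrutinib and single peptide DMSO cells, where the shares were 16.7% and 16.2%. Ibrutinib raised Tcf7 (0.93, SE 0.20, adjusted p = 0.00965), Bcl11b (0.71, SE 0.14, adjusted p = 0.00446) and Lef1 (0.62, SE 0.14, adjusted p = 0.00942) in repeat peptide cells, and Runx1 (0.89, SE 0.23, adjusted p = 0.0366) in single peptide cells, where 4.01% of genes were called higher and 3.04% were called. In single peptide cells none of the 14 was called without single peptide DMSO A, B, C or D or single peptide ibrutinib A, B or D, with the offset for effective length or with only the compared groups, and 2 were called with the block, where 9.09% of genes were. For the difference of the ibrutinib effects 0 were called without the block and 4 with it, where 1.26% and 5.54% of all genes were called. None of the 14 was called for ibrutinib in either culture by limma on log2(TPM + 1).

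Neighbouring genes did not move as a block with the chains. None of the 6 nearest tested genes around the Cd8 pair was called in the 4 comparisons of peptide or drug, among them Smyd1 at -0.35, 555 bases from Cd8b1, and Rmnd5a at -0.17, beyond Cd8a, for repeat against single peptide with DMSO. Around the Cd3 genes, Ube4a (-0.47) and Kmt2a (-0.87) were called lower and Mpzl3 (1.85) and Jaml (0.65) higher in that comparison. Mpzl2 (7.65, adjusted p = 1.64e-06), and Thnsl2 near the Cd8 pair (1.19, adjusted p = 0.0416), passed on p and size there but were under the count minimum. Around Cd247, Creg1 (-0.86) and Pogk (-1.22) were lower and Tada1 (0.45) higher. Pou2f1 and Gm16565, which overlap Cd247, were at 0.39 (adjusted p = 0.11) and 0.82 (adjusted p = 0.28).

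Across the 18 libraries, log2 normalised counts of Cd247 and Cd8b1 had Pearson's r of 0.92, and Cd8a and Cd8b1 0.86, while within groups these values were 0.73 and 0.14. Cd3d and Cd3g had 0.48 across libraries and 0.95 within groups. The genes most alike over the 18 libraries were Nop10 for Cd3d (0.96), Chp1 for Cd3e (0.82), Vamp8 for Cd3g (0.98), Lmo4 for Cd247 (0.97), Poli for Cd8a (0.92) and Dtx1 for Cd8b1 (0.96). These correlations describe libraries that share 4 groups, their depth and the length trend.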

How the data were processed

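RNA-seq of poly-A selected, strand-specific, paired-end libraries was measured in 18 samples. The authors trimmed reads with Trim Galore and estimated counts with RSEM 1.3.1 and STAR on GRCm38 with the Ensembl annotation. They deposited, for each gene and library, the estimated (expected) count, which is not normalised, the TPM, scaled to a fixed total per library, and lengths in bases. The members and gene lists were chosen with earlier results of these data known.

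Expected counts were rounded, limited to protein-coding and lncRNA genes (98.5% of counts) by GENCODE M21, and filtered by filterByExpr, which left 12255 genes. The main fit was edgeR 4.0.16 (R 4.3.3) with TMM normalisation and the robust quasi-likelihood test, 1 fit of 4 groups without a block. The labels do not say whether experiments used separate animals, so p-values measure the spread between these libraries. Normalised counts were brought to 1 common effective library size, the mean over libraries. Every value of the 6 genes rests on at least 2509 expected counts in a library, so counting error is small beside the spread between libraries. Alternatives included DESeq2 1.42.0 (Wald test), limma 3.58.1 on log2(TPM + 1), an offset for effective length, all gene types and leaving out each library. The fit was tested on simulated data.

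Deviations from group means correlated by 0.11 to 0.437 (median 0.277) in 24 pairs of libraries of the same experiment and by -0.38 to 0.344 (median -0.0692) in 97 other pairs. Every same-experiment pair was above 0.1, the criterion for taking the experiments as pairs, although the ranges overlap. A fit with the experiment as a block was therefore run beside the main fit. Experiments E and F have no library of another group, so they add nothing to its group differences. The main fit and the permutation tests leave the pairing out, so their p-values do not take account of it. Of each other gene list, the called genes with the 3 largest changes per comparison were eligible to be named, and for each chain the most alike genes by Pearson's r. Among the signalling partners, Lck and Zap70 were named outside this rule. Promoter windows came from RefSeq (GRCm38.p6).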

Additional observations from a re-analysis of the deposited data

Results flagged for a closer look

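In groups of 4 or 5 libraries, the highest or lowest value stood apart from the others by Dixon's criterion in 6 of 64 groups of values, where chance flags about 1 in 20. Normalised counts of Cd247 in repeat peptide ibrutinib E (6480), Cd3d in repeat peptide DMSO B (11618) and in single peptide DMSO D (13578), and Cd8a in repeat peptide ibrutinib B (35104) were each the highest of their group. The TPM ratio of Cd8a to Cd8b1 in single peptide ibrutinib B (0.695) and of Cd3d to Cd3g in repeat peptide ibrutinib E (0.607) were also the highest. The 3 libraries flagged for Cd247 or Cd3d counts had length trends of -0.32, -0.12 and -0.12 log2 units per doubling, and the part of these trends in the values was not tested beyond the correction given above.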

How the results depend on the processing

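Cd8b1 and Cd247 stayed called lower in repeat than in single peptide cells under every alternative except, for Cd247 outside the DMSO comparison, an absolute log2 fold change above 1. That threshold left 0, 2, 1 and 1 chains called for ibrutinib in repeat peptide cells, for repeat against single peptide under DMSO and under ibrutinib, and for repeat peptide ibrutinib against single peptide DMSO. The shares of all genes called there were 1.93%, 16.3%, 11.9% and 9.05%, in the same order. For ibrutinib in repeat peptide cells 0 chains were called with only the compared groups, 2 by limma on log2(TPM + 1), and 0 to 1 without single libraries. Beside these, 3.92%, 3.19% and 2.86% to 7.14% of all genes were called. Limma on TPM called 3 for repeat against single peptide with DMSO, where 35.3% of genes were called. Removing the length trend together with the experiment block called 2, 1 and 1 chains for ibrutinib in repeat cells, in single cells and for their difference. The shares of all genes called there were 16.6%, 12% and 6.39%. The block alone changed no call of a chain, but it raised the genes called for ibrutinib from 726 to 1694 in repeat and from 373 to 1114 in single peptide cells, and for their difference from 154 to 679. DESeq2 called 1152, 616 and 350.

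Signs of small differences turned. On TPM, Cd3e (-0.0015) and Cd8a (-0.060) with ibrutinib in single peptide cells, and Cd3d for repeat against single peptide with DMSO (0.16) and ibrutinib (0.019) and Cd3e with ibrutinib (0.092) changed sign. With the length trend removed, repeat peptide ibrutinib against single peptide DMSO gave -0.027 for Cd3d and -0.18 for Cd3e, and -0.14 and -0.091 with the block. The median of all genes there was -0.087, and -0.098 with the block, against 0.002 in the main fit. Without single libraries, ranges crossing 0 were -0.25 to 0.10 and -0.14 to 0.078 for the difference of ibrutinib effects in Cd3d and Cd8b1, -0.088 to 0.072 under DMSO and -0.28 to 0.072 under ibrutinib for Cd3d between repeat and single peptide, -0.063 to 0.0044 for Cd3e with ibrutinib, -0.0068 to 0.070 for Cd3e between repeat ibrutinib and single DMSO cells, and -0.011 to 0.053 for Cd8a with ibrutinib in single peptide cells.

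Of the ratio tests, Cd8a to Cd8b1 with ibrutinib ranged from -0.43 to -0.27 in repeat and from -0.33 to -0.16 in single peptide cells without single libraries, and the latter passed with the length trend removed (-0.22). Cd247 to Cd3e ranged from -0.73 to -0.54 for repeat against single peptide with ibrutinib, missing the threshold without repeat peptide ibrutinib A, B, C or D or single peptide ibrutinib A, C or D (p of 0.0536 to 0.0714), and from -0.063 to 0.10 for ibrutinib in single peptide cells, where pairing by experiment (the replicate block) gave -0.063. Cd3d to Cd3g with ibrutinib in single peptide cells ranged from 0.13 to 0.21, and missed the threshold on TPM (0.16), with the length trend removed (0.16) and without 7 of the 9 libraries in turn. Cd8a to Cd3e ranged from -0.084 to 0.024 for ibrutinib in single peptide cells, and was -0.30 and no longer past the threshold for repeat against single peptide with ibrutinib once the length trend was removed. With 4 pairs a sign-flip test cannot go below 0.125, so only its direction was compared. The causes of these changes were not tested.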
